A study of Mus musculus with 4 samples.

Results

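Somatostatin and galanin are neuropeptides that are cut from longer precursors and act on G-protein-coupled receptors. The 7 genes described here are *Sst* and *Gal*, which encode the precursors, the somatostatin receptor genes *Sstr1*, *Sstr2*, *Sstr3* and *Sstr4*, and the galanin receptor gene *Galr1*. They were chosen by name, out of 32285 genes counted, and followed through all 134 neuronal clusters and 14 cell types of the posterior hindbrain. The analysis used the 39461 nuclei that the authors kept, of 44303 barcodes, and 12539 of these nuclei were neurons.

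Somatostatin receptors and GALR1 couple mainly to inhibitory G proteins, which lower cyclic AMP and open inwardly rectifying potassium channels, so both peptides are known chiefly for damping the neurons and terminals that they reach. In the brainstem, somatostatin marks many local inhibitory and some excitatory neurons. Galanin is a known co-transmitter of noradrenergic and other projection neurons, and the dorsal vagal complex, where gut signals enter the brain, holds cells and receptors of both systems.

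The nuclei came from 4 libraries of a piece of hindbrain with the area postrema and the nucleus of the solitary tract, 2 of the control group and 2 of the group named AgRP-Gq;POMC-Gi. The mice of the latter carried both recombinase lines, AgRP-IRES-Cre+/- and POMC-Dre+/-, and the alleles of both designer receptors, hM3DGq fl/- and hM4DGi fl/-, through which clozapine-N-oxide (CNO) drives AgRP neurons and silences POMC neurons. The control mice are labelled as wildtype. By the study's methods its controls had the same receptor alleles and neither recombinase (AgRP-IRES-Cre-/- and POMC-Dre-/-). All mice were adults of 12 to 20 weeks and of both sexes, received CNO at 3 mg per kg into the peritoneum, had no food and were killed 1 h later. Tissue was pooled within a condition, with 2 mice in each group, and the labels do not say whether each library is 1 mouse, so the spread between libraries may be partly technical. The recombinases follow the *Agrp* and *Pomc* genes, and whether any sampled nucleus carried a designer receptor was not tested.

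Values by library are given in the order control 1, control 2, AgRP-Gq;POMC-Gi 1 and AgRP-Gq;POMC-Gi 2. These libraries held 2470, 2736, 3696 and 3637 neurons, or 25.4%, 27.2%, 38.0% and 36.5% of their nuclei, with 26860073 to 35583732 unique molecular identifiers (UMIs, each standing for 1 captured transcript) in neurons. Of 19 cell type markers, 17 were highest in the type that they mark, the exceptions being *Gfap*, highest in tanycyte-like cells, and *Cspg4*, highest in mural cells. Control 2 and AgRP-Gq;POMC-Gi 2 held 436 and 329 nuclei of the choroid plexus and the other two libraries 2 and 6. The libraries shared 206 barcodes, 168 of them among kept nuclei.

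The stretches of both precursor genes that encode the secreted peptides are shown because the ligand transcripts carry most of the results. *Sst* lies on the minus strand of chromosome 16 (23889573 to 23890958, GRCm38, GENCODE M21) and has 2 exons and 116 precursor codons. The stretch printed lies in exon 2, chr16:23889729-23889779, and holds the peptide of 14 codons in capitals, with the basic cleavage pair before it and the stop codon after it in lower case. *Gal* lies on the minus strand of chromosome 19 (3409915 to 3414544) and has 6 exons and 124 precursor codons. The stretch printed joins parts of exon 3, chr19:3413295-3413340, and exon 4, chr19:3411592-3411647, and holds the peptide of 29 codons in capitals, with a basic pair before it and the glycine and basic pair that mark the end for amidation and cleavage after it in lower case.
Sst: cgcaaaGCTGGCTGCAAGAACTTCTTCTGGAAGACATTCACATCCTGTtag
Gal: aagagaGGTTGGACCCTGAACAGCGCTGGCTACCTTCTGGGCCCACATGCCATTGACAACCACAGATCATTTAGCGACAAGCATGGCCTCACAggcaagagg

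*Sst* was the ligand found in more neurons. A UMI of *Sst* was present in 16.3% of neurons (95% exact interval 15.7% to 16.99%) and a UMI of *Gal* in 5.96% (5.55% to 6.39%). These intervals, like all intervals and floors below, cover counting error only. The level of *Sst* in neurons, in CPM (UMIs for each 1000000 UMIs of the same nuclei), was 30.0, 32.1, 23.5 and 35.0 by library, or 30.2 ± 4.87 (SD, n = 4). The level of *Gal* in neurons was 5.96, 11.3, 10.5 and 19.5 CPM, or 11.8 ± 5.65. The libraries were close to each other for *Sst*, whereas for *Gal* they ran from the lowest in control 1 to the highest in AgRP-Gq;POMC-Gi 2, and in each group the second library was the higher one for both genes.

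UMIs of both ligands were also found in nuclei that are not neurons. Oligodendrocytes, which should make neither peptide, had a UMI of *Sst* in 5.77% of 16816 nuclei and a UMI of *Gal* in 2.18%, at a median depth of 2460 UMIs against 8704 in neurons. On the CPM scale, oligodendrocytes stood at 19.8, 24.5, 21.9 and 27.4 for *Sst* and at 4.64, 8.13, 11.2 and 14.1 for *Gal*, so the ranges of both types overlapped for either gene. Per nucleus, neurons held 4.78 times as many *Sst* UMIs (4.24 to 5.44 by library) and 5.09 times as many *Gal* UMIs (3.73 to 5.26). Endothelial and mural nuclei reached 46.3 ± 21.1 and 37.6 ± 16.1 CPM of *Sst*, and tanycyte-like cells 39.7 ± 40.7 CPM of *Gal*, so neurons were not the highest type on that scale. Thinned to 800 UMIs, 2.80% of neurons and 1.91% of oligodendrocytes held *Sst*, and 1.12% and 0.856% held *Gal*.

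Nuclei with several UMIs were compared next, at the same unequal depths. At least 2 UMIs of *Sst* were found in 5.60% of neurons and 0.428% of oligodendrocytes, and at least 4 in 1.54% and 0.00595%. For *Gal* the shares were 2.03% against 0.208% at 2 UMIs, and 0.670% against 0 of 16816 nuclei at 4, which allows up to 0.0178%. With all nuclei thinned to 2000 UMIs, the shares with at least 2 UMIs were 0.865% of neurons against 0.281% of oligodendrocytes for *Sst*, and 0.420% against 0.0614% for *Gal*. If every neuron held *Sst* at the oligodendrocyte level of its library, 2.86% of neurons would have at least 2 UMIs by Poisson counting at their own depths, and 0.0400% at least 4, and for *Gal* these shares would be 0.628% and 0.00236%. The highest count in 1 neuron was 31 for *Sst* and 36 for *Gal*. The ratio of *Gal* to *Sst* UMIs in oligodendrocytes was 0.234, 0.331, 0.510 and 0.516 by library, close to the 0.198, 0.352, 0.449 and 0.559 of neurons, and it was 0.269, 0.368, 0.508 and 0.679 in astrocytes, so the ratio differed more between libraries than between these types. A single UMI of either ligand was therefore not read as expression, and the neurons called *Sst* or *Gal* neurons below are those with at least 2 UMIs. At the oligodendrocyte CPM, scaled to the depth of each neuron, 359 neurons would have 2 or more *Sst* UMIs, where 702 were found. For *Gal* 79 would have 2 or more, where 254 were found. Whether background scales with depth in this way was not tested. The 61 neuronal clusters whose share with *Sst* did not lie above oligodendrocytes held 13.3, 12.3, 9.21 and 9.16 CPM of it by library. For *Gal* the 109 such clusters held 1.64, 2.93, 2.82 and 5.51 CPM. Both sets, picked by low counts of the same genes, were below oligodendrocytes in each library, so 359 and 79 may be too high. These classes also hold nuclei that cannot be told from background.

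The receptor transcripts were rarer in oligodendrocytes than in neurons. *Sstr2* was present in 7.58% of neurons and 0.297% of oligodendrocytes, at 8.56, 9.84, 7.36 and 9.35 CPM in neurons. *Galr1* was present in 3.79% of neurons and 0.119% of oligodendrocytes, at 3.54, 5.50, 5.00 and 6.26 CPM. Per nucleus, neurons held 26.6 times as many *Sstr2* UMIs as oligodendrocytes (18.4 to 41.25 by library) and 43.3 times as many *Galr1* UMIs (21.6 to 221). The ratio for *Galr1* rests on 20 UMIs in oligodendrocytes. The CPM of neurons lay above that of oligodendrocytes in all 4 libraries for both genes. Some small types came near the neurons on the CPM scale, as *Sstr2* was at 8.29 ± 6.72 in mural nuclei, 6.54 ± 4.199 in fibroblasts and 6.07 ± 2.53 in endothelial nuclei against 8.78 in neurons, from 14, 9 and 8 UMIs. A mean above that of neurons was reached by *Sstr2* in Ms4a4b immune cells (12.7 CPM) and by *Galr1* in F13a1 immune cells (6.75 CPM), each from 1 UMI. No UMI of *Galr1* was found in 784 oligodendrocyte precursors, 773 choroid plexus nuclei or 806 mural nuclei, which allows shares of up to 0.383%, 0.388% and 0.372%.

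*Sstr1* and *Sstr3* were sparse. *Sstr1* was present in 1.41% of neurons, at 1.30, 2.04, 1.57 and 1.08 CPM, and *Sstr3* in 1.36%, at 1.19, 1.31, 1.52 and 1.47 CPM. *Sstr1* was also found in oligodendrocyte precursors, at 4.13, 14.9, 2.75 and 12.5 CPM and in 3.06% of nuclei (24 of 784). The lowest library of the precursors lay above the highest of the neurons, although 26 UMIs stand behind that level. *Sstr4* gave 19 UMIs in all neurons and 0 in 16816 oligodendrocytes, which allows a share of up to 0.0178%, so nothing below rests on it.

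**Figure D1:**
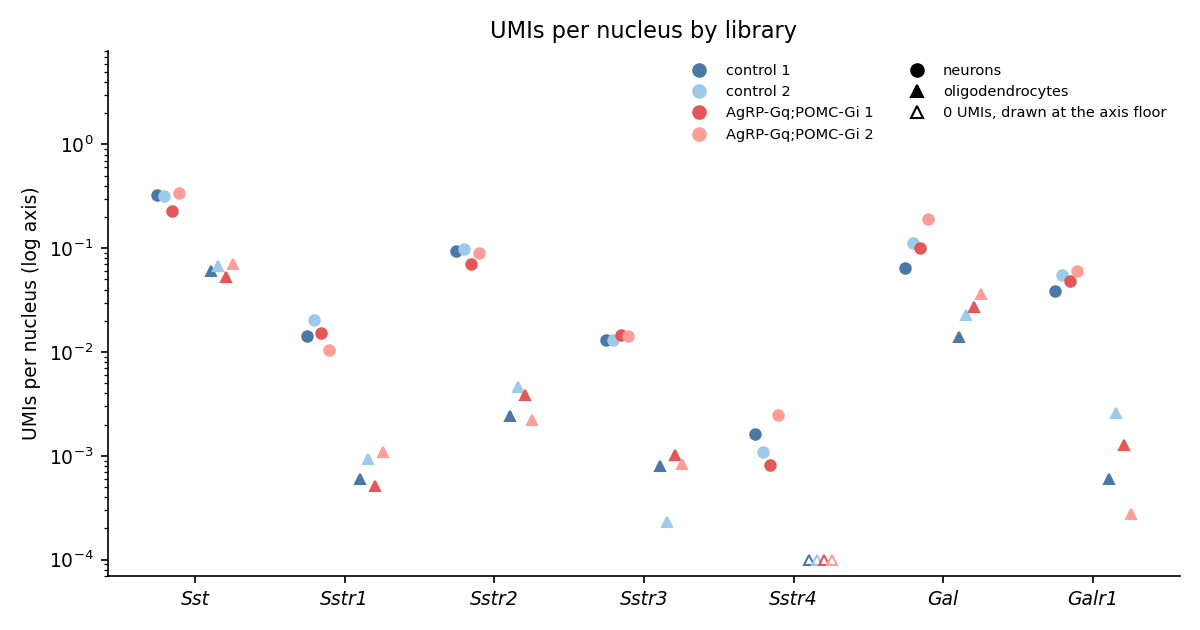
UMIs per nucleus of each gene in neurons (circles) and oligodendrocytes (triangles), on a log axis, with 1 point for each of the 4 libraries. Neurons held 4.78 times as many *Sst* and 5.09 times as many *Gal* UMIs per nucleus as oligodendrocytes, against 26.6 times for *Sstr2* and 43.3 times for *Galr1* (21.6 to 221 by library), and *Sstr4* had 0 UMIs in oligodendrocytes.

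The rest of both families was close to absent. In all neurons there were 31 UMIs of *Cort*, which encodes a peptide related to somatostatin, and 11 of *Sstr5*. The second and the third galanin receptor, *Galr2* and *Galr3*, gave 14 and 17 UMIs, and *Galp*, a galanin-like peptide, 22. *Spx*, whose product acts on galanin receptors, was the exception at 10.5 ± 0.835 CPM and in 9.53% of neurons.

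The UMIs of *Gal* were concentrated in few clusters and those of *Sst* were spread over many. With clusters added from the highest mean CPM down, the first 5 held 52.9% of the *Gal* UMIs of neurons in 3.51% of the nuclei. The first 5 for *Sst* held 17.2% in 3.58% of the nuclei, those for *Galr1* 26.0% in 3.13% and those for *Sstr2* 5.68% in 2.08%. The clusters were ordered by the same counts and were built on expression, so these shares are a description without a test, and the ordering by itself raises the share for a sparse gene. Outside its 5 highest clusters *Sst* stood at 26.1, 27.4, 20.3 and 29.3 CPM by library, near the mean of 23.4 CPM in oligodendrocytes. Per nucleus these neurons held more, at 0.285, 0.276, 0.197 and 0.286 *Sst* UMIs against 0.0600, 0.0681, 0.0534 and 0.0698 in oligodendrocytes. The part of background in the spread of *Sst* UMIs was not tested.

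The number of clusters in which the interval of the share of nuclei with a UMI lay wholly above the share in oligodendrocytes was 73 of 134 for *Sst*, 25 for *Gal*, 114 for *Sstr2* and 62 for *Galr1*. It was 46 for *Sstr1* and 45 for *Sstr3*, against oligodendrocyte shares of only 0.0773% and 0.0714%. For *Sstr4* that share was 0, so each of the 12 clusters with any UMI lies above it, and that count carries no weight. The higher UMI totals of neuronal nuclei enter these counts: thinned to 2000 UMIs they were 25, 9, 48 and 30 for *Sst*, *Gal*, *Sstr2* and *Galr1*. For *Sstr1* and *Sstr3* they were then 12 and 5. Of the 25 *Gal* clusters 17 were glutamatergic and 6 GABAergic, out of 69 and 46 clusters so called from *Slc17a6* and *Slc32a1*. Without AgRP-Gq;POMC-Gi 2 the *Gal* clusters were 14, 10 of them glutamatergic and 3 GABAergic. Of the 62 *Galr1* clusters 23 were glutamatergic and 31 GABAergic.

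**Figure D2:**
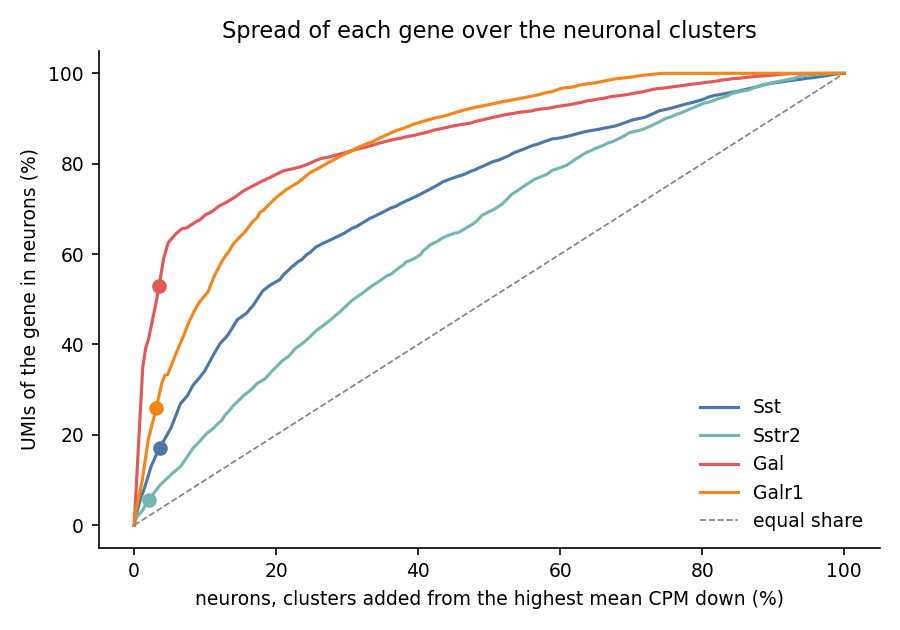
Cumulative share of the UMIs of 4 genes against the cumulative share of neurons (both in percent), with clusters added from the highest mean CPM down and the fifth cluster marked by a point. The *Gal* curve reaches 52.9% of UMIs in 3.51% of neurons, while *Sstr2* runs closest to the dashed line of equal shares.

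The *Gal* clusters were led by cluster 53, Gal/Dkk2, which the authors named for the gene. It held 227.6, 889.5, 331.1 and 362.2 CPM of *Gal* by library, with a UMI in 64.9% of 151 nuclei, and led in each of the 4 libraries, among those clusters that had 5 or more nuclei per library. In control 1, clusters 154 and 159 stood higher, from 3 nuclei each. Within cluster 53, control 2 stood apart, with 149 UMIs in 19 nuclei. The same neurons carried *Penk*, the enkephalin precursor, at 80.2 ± 28.7 CPM, and *Adcyap1*, which encodes PACAP, at 60.2 ± 14.7 CPM.

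The next 4 *Gal* clusters were glutamatergic too. Cluster 154, Olfr78/Calcr, held 326, 200, 107 and 168 CPM and had a UMI in 60.4% of 53 nuclei. Its control values rest on 3 and 4 nuclei, with 11 and 6 UMIs. Cluster 159, Casr/Slc6a2, with the noradrenaline transporter in its name and *Dbh*, the enzyme that makes noradrenaline, at 88.1 ± 23.9 CPM, held 239, 407, 46.8 and 51.6 CPM from 30 UMIs. The controls had only 3 and 5 nuclei there, with 2 UMIs in control 1 and 13 in control 2, all in 1 nucleus, and without control 2 its mean fell from 186 to 113 CPM. Cluster 70, Tfap2b/Cntnap5b, held 140, 145, 105 and 120 CPM in 131 nuclei and was the most even of the 5 across libraries. Cluster 149, Cartpt/Arhgap28, held 140, 62.6, 114 and 135 CPM beside 349 ± 120 CPM of *Cartpt*, a satiety peptide precursor, and 305 ± 89.8 CPM of *Tac1*, the substance P precursor.

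The *Sst* clusters mixed both transmitters. Cluster 173, Mecom/Oprk1, glutamatergic, held 541, 226, 59.2 and 292 CPM of *Sst* in 40 nuclei and was the least even between libraries. Only 19 of these nuclei had a UMI, and 31 of the 98 UMIs were in 1 nucleus. Without control 1 its mean fell from 279 to 192 CPM. Cluster 117, Ebf2/Nmu, held 157, 273, 108 and 278 CPM and cluster 146, Rxfp1/Ebf2, 285, 183, 138 and 209 CPM, with a UMI in 60.5% and 62.1% of nuclei. All of these carried *Calb1*, a calcium buffer, at 286 ± 300, 226 ± 107 and 272 ± 79.1 CPM, and cluster 146 also carried *Cck*, the cholecystokinin precursor, at 209 ± 79.7 CPM.

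The other two of the 5 *Sst* clusters were GABAergic, and the first of them varied least between libraries of all 5. Cluster 75, Qrfprl/Baiap3, held 181, 212, 188 and 140 CPM in 121 nuclei, with *Nos1*, the neuronal nitric oxide synthase, at 182 ± 37.0 CPM and *Penk* at 133 ± 16.7 CPM. Cluster 55, Rab38/Ano1, held 92.3, 206, 125 and 101 CPM in 149 nuclei, with *Penk* at 160 ± 87.3 CPM and *Npy*, the neuropeptide Y precursor, at 74.4 ± 17.7 CPM. Both carried *Slc6a5*, the glycine transporter, at 117 ± 13.8 and 150 ± 9.47 CPM. The ranges over libraries of all 5 clusters overlapped, so their order is not fixed by these data.

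Of the 5 highest *Galr1* clusters, 4 were GABAergic. Cluster 180, Cpa6/Cngb3, the highest, whose transmitter was not called, held 10.6, 83.9, 155 and 71.6 CPM in 31 nuclei. Clusters 163, 144, 83 and 60, all GABAergic, had means of 63.7, 59.7, 50.5 and 45.2 CPM. Cluster 163 varied widely, at 148, 0, 29.7 and 77.4 CPM, and without control 1, with 5 UMIs in 5 nuclei, its mean was 35.7 CPM. The firmest of these was cluster 83, Agtr1b/Cntnap5b, at 26.3, 38.9, 57.6 and 79.2 CPM from 61 UMIs, which also held *Tac1* at 181 ± 50.04 CPM and *Slc6a5* at 146 ± 10.9 CPM. A different cluster was highest in each of the 4 libraries.

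*Sstr2* was spread over nearly all clusters, with 1 higher mean. Cluster 171, Otof/Gbx1, GABAergic, held 89.0, 144, 45.9 and 57.7 CPM, although from only 19 UMIs in 42 nuclei, and the next, cluster 86, Tfap2b/Col25a1, held 20.8, 14.01, 8.17 and 53.5 CPM, so their ranges overlapped. Clusters 185, 174 and 152 followed at means of 23.5, 20.7 and 19.05 CPM, cluster 185 from 4 UMIs in 2 of 15 nuclei. Without AgRP-Gq;POMC-Gi 2 the means of clusters 86 and 185 were 14.3 and 11.1 CPM, so the order after cluster 171 carries no weight. The median cluster stood at 7.78 CPM. The 5 highest clusters of *Sstr1* (182, 183, 49, 126 and 64) rested on 1 to 11 UMIs each, those of *Sstr3* (182, 152, 168, 181 and 157) on 1 to 3 and those of *Sstr4* (185, 175, 163, 120 and 156) on 1 to 3, so their order carries no weight.

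**Figure D3:**
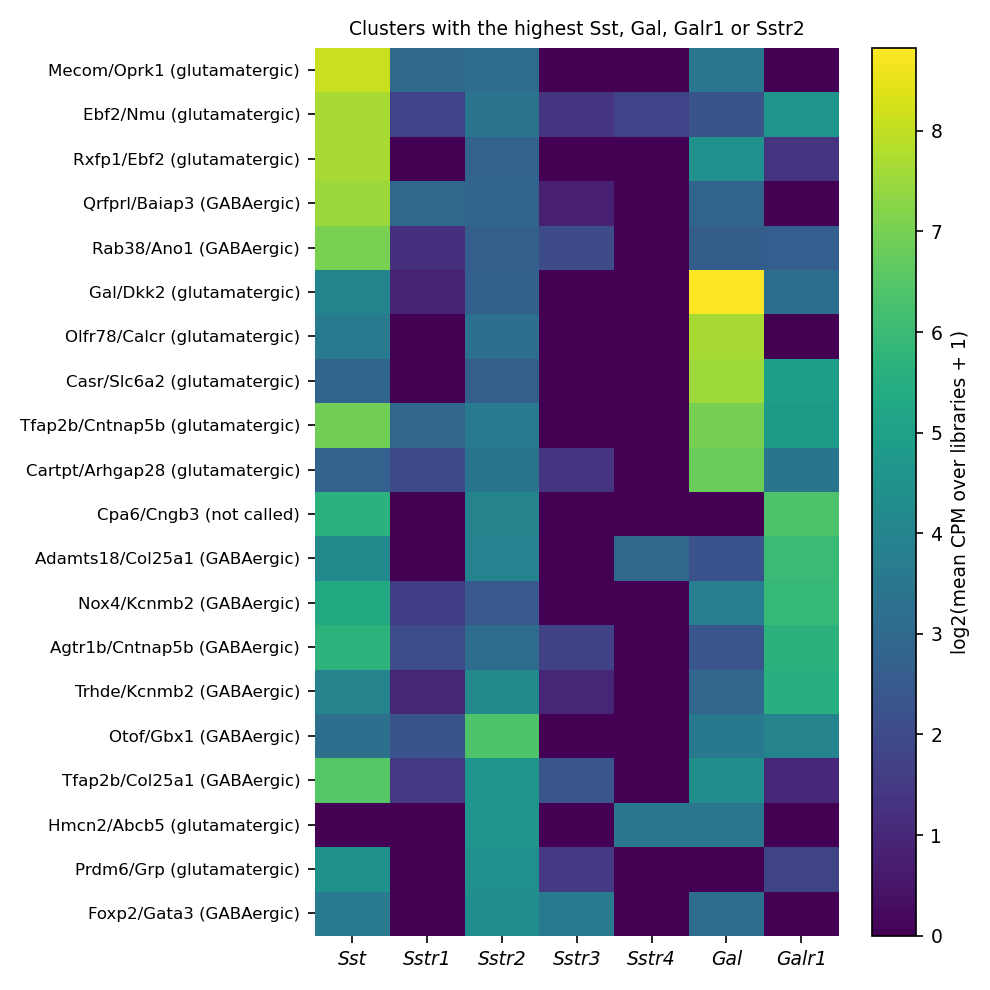
Mean CPM over the 4 libraries, as log2(CPM + 1), of the 7 genes in the 5 highest clusters of *Sst*, *Gal*, *Galr1* and *Sstr2*, with the transmitter called for each cluster. *Gal* reaches 453 CPM in Gal/Dkk2, *Sst* 279 CPM in Mecom/Oprk1, *Sstr2* 84.1 CPM in Otof/Gbx1 and *Galr1* 80.4 CPM in Cpa6/Cngb3.

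The overlap of ligand and receptor clusters was set beside the share of each receptor over all clusters. Of the 73 clusters with *Sst* above background, 63 (86.3%) also had *Sstr2* above background, against 85.1% of all 134 clusters, and these are 55.3% of the 114 *Sstr2* clusters. Of the 25 *Gal* clusters, 10 (40.0%) also had *Galr1*, against 46.3% of all clusters, and these are 16.1% of the 62 *Galr1* clusters. Without AgRP-Gq;POMC-Gi 2 these were 6 of 14 (42.9%), against 33.6% of all clusters, so the order of both shares turned. *Sst* and *Gal* shared 12 clusters, 16.4% of the *Sst* set and 48.0% of the *Gal* set, where *Sst* was above background in 54.5% of all clusters and *Gal* in 18.7%. Without AgRP-Gq;POMC-Gi 2 they shared 4 clusters. None of these shares was tested. The sets rest on the share of nuclei with a UMI, and neurons held more UMIs per nucleus than oligodendrocytes. They are therefore not read as sets of expressing clusters. In thinned nuclei only 25 *Sst*, 48 *Sstr2*, 9 *Gal* and 30 *Galr1* clusters lay above oligodendrocytes. The overlap of these smaller sets was not tested.

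Excitatory and inhibitory neurons were then compared without use of the clusters. Neurons with a UMI of *Slc32a1*, the vesicular transporter of GABA and glycine, and none of *Slc17a6* (2229 nuclei) were set against neurons with a UMI of *Slc17a6*, a vesicular glutamate transporter, and none of *Slc32a1* (4196 nuclei), with the library as a block. *Galr1* was higher in *Slc32a1* neurons, at 5.53, 7.84, 7.71 and 5.90 CPM against 1.96, 3.83, 2.78 and 5.01, and the classes did not overlap. It was higher in 4 of 4 libraries, with a log2 fold change of 0.95 ± 0.21 (SE) and an adjusted p of 0.00449 (edgeR quasi-likelihood test, Benjamini-Hochberg). The call was lost without AgRP-Gq;POMC-Gi 1, at a log2 fold change of 0.78, and in nuclei thinned to 2000 UMIs, at 0.59.

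*Gal* was lower in *Slc32a1* neurons, at 2.08, 4.37, 4.36 and 7.05 CPM against 6.48, 16.7, 14.04 and 22.2 in *Slc17a6* neurons. It was lower in 4 of 4 libraries, with a log2 fold change of -1.75 ± 0.13 and an adjusted p of 4.69e-08 in edgeR, and it stayed called under all 10 alternatives. *Sst* did not pass the test, at 29.4 ± 4.11 CPM in *Slc32a1* and 28.4 ± 5.12 CPM in *Slc17a6* neurons (log2 fold change 0.03 ± 0.08, adjusted p of 0.871 in edgeR). Neither did *Sstr2* (-0.19 ± 0.13), *Sstr1* (-0.29 ± 0.30) or *Sstr3* (0.19 ± 0.31) pass the test. So 2 of the 6 members tested were called, 1 in each direction, where 12.8% of 18970 genes were called, 5.48% higher and 7.29% lower.

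The enzymes and granule proteins that process neuropeptides went both ways between these classes. Of 10 genes of that list 4 were called: the prohormone convertases *Pcsk1* and *Pcsk2* were lower in *Slc32a1* neurons by log2 fold changes of -1.69 and -0.94, and the granins *Scg3* and *Chgb* were higher by 0.44 and 0.27. The median over the list was -0.05 against 0.00 over all genes tested. Among 16 genes downstream of inhibitory receptors, 4 were called: *Adcy8* and *Adcy1*, which encode adenylyl cyclases, were higher (0.34 and 0.29), and *Adcy2* and the potassium channel gene *Kcnj6* were lower (-0.53 and -0.28), with a list median of -0.12. *Chgb* lost its call in thinned nuclei and without the library block, and *Adcy1* lost it in 4 of 10 alternatives.

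Neurons with at least 2 UMIs of *Sst* (702 nuclei in 108 clusters) were compared with the 10491 neurons that had none, within libraries, to see which transmitters and receptors went with the peptide. No receptor passed the test. *Galr1* stood at 3.99, 7.25, 7.31 and 8.37 CPM in *Sst* neurons, higher than in the others in 4 of 4 libraries, with a log2 fold change of 0.51 ± 0.24 and an adjusted p of 0.327 in edgeR. *Sstr2* was at 8.60 ± 3.15 against 8.63 ± 0.945 CPM (log2 fold change 0.05 ± 0.20), and it had a UMI in 8.55% (6.59% to 10.9%) of *Sst* neurons against 7.41% (6.91% to 7.92%) of the others, at median depths of 9856 and 8624 UMIs. Of the 5 members tested 0 were called in edgeR and in DESeq2 (which gave *Sstr3* no adjusted p), and 1, *Galr1*, had an unadjusted p under 0.05 in edgeR, where 4.17% of 18971 genes were called. *Gal* was called at a minimum of 4 UMIs of *Sst* (log2 fold change 0.84) and was at -0.16 without control 2.

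Among 30 transmitter and peptide genes, 9 were higher and 1 was lower in *Sst* neurons, against 2.64% and 1.53% of all genes tested, with a list median of 0.18 against -0.02. *Tac2*, the neurokinin B precursor, had the largest log2 fold change, 3.50 ± 0.43, from 7.98, 1.67, 0 and 27.9 CPM by library, and its call was lost with DESeq2. *Npy* (1.76 ± 0.24) and *Calb1* (1.38 ± 0.14) were higher in 4 of 4 libraries, and *Slc17a7*, another glutamate transporter gene, was lower (-1.22 ± 0.29) from 24 UMIs. The other genes called higher were *Penk*, *Nts*, *Nos1*, *Pnoc*, *Cck* and *Tac1*. In nuclei thinned to 2000 UMIs the calls for *Tac2*, *Calb1* and *Penk* remained, and those for the other 7 were lost. Beyond thinning, *Nts* and *Slc17a7* lost their calls in 3 other alternatives and *Cck* and *Pnoc* in 2.

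Of 10 genes of peptide processing, 4 were called higher in *Sst* neurons, 0 were called lower and 6 did not pass the test, against 2.64% of all genes called higher, with a list median of 0.12 against -0.02. Those called were the granin genes *Chgb* (0.77 ± 0.07) and *Scg2* (0.53 ± 0.06), *Pcsk1* (0.36 ± 0.09) and *Pcsk1n*, which encodes an inhibitor of that convertase (0.29 ± 0.06). *Chgb* and *Scg2* kept their calls under all 9 alternatives, while *Pcsk1* kept its call in 2 of 9. Of the 16 downstream genes *Adcy2* (0.54 ± 0.06) and *Kcnj6* (0.31 ± 0.06) were higher, *Kcnj6* not when thinned. Outside the lists, the highest fold changes among called genes with at least 10 CPM in *Sst* neurons were those of *Nmu* (2.44), the neuromedin U precursor, *Mylk* (2.12), *Rtp4* (2.10), *Lpar1* (2.02) and *Masp1* (1.54), all called under all 9 alternatives. *Nmu* was uneven between libraries, at 12.3 ± 13.1 CPM (SD). *Mylk* and *Nmu* also name clusters 42 and 117, which held 47 and 31 of the 702 *Sst* neurons. The part of these clusters in the calls was not tested.

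Neurons with at least 2 UMIs of *Gal* were fewer, 254 nuclei in 53 clusters, and 31.1% of them lay in cluster 53. Against the 11792 neurons without *Gal*, 1 of 5 members tested was called higher, where 4.59% of 18971 genes were, and none lower (9.96% of genes called in either direction). This was *Sst*, at 35.6, 132, 20.0 and 33.8 CPM in *Gal* neurons, with a log2 fold change of 0.59 ± 0.18 and an adjusted p of 0.0142 in edgeR. Control 2 carried it with 46 UMIs: *Sst* was higher in *Gal* neurons in only 2 of 4 libraries, and without control 2 the log2 fold change was -0.04. The call was also lost with DESeq2, at a minimum of 4 UMIs of *Gal* and in thinned nuclei. *Galr1* was at 11.2 ± 5.55 against 5.00 ± 1.34 CPM (0.74 ± 0.43, adjusted p of 0.332), from 21 UMIs, and *Sstr2* at 8.61 ± 3.31 against 8.83 ± 1.12 CPM (-0.02 ± 0.37).

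Among the transmitter and peptide genes, 8 were higher and 5 were lower in *Gal* neurons, against 4.59% and 5.37% of all genes tested, with a list median of -0.05 against -0.08. *Chat*, which makes acetylcholine, was higher (2.35 ± 0.32), at 7.12, 22.9, 33.3 and 24.7 CPM, and lost its call in thinned nuclei. *Slc18a3*, the vesicular acetylcholine transporter gene, which lies inside the *Chat* locus, was higher as well (2.33 ± 0.75) but from 9 UMIs. It kept its call in 3 of 8 alternatives. *Slc6a5* was lower (-2.00 ± 0.18), and *Tph2*, of serotonin synthesis, was lower (-3.20 ± 1.05) but kept its call in only 2 of 9 alternatives. The other genes called were *Dbh*, *Adcyap1*, *Grp*, *Cartpt*, *Slc17a6* and *Penk*, higher, and *Gad1*, *Slc32a1* and *Pvalb*, lower. Of these, *Penk* and *Grp* kept their calls in 3 of 9 alternatives, *Dbh* in 4, *Pvalb* in 5, *Slc17a6* in 6, *Cartpt* in 7 and *Slc32a1* in 8. *Adcyap1*, *Gad1* and *Slc6a5* were the ones called under all 9 alternatives.

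Of the same 10 genes, 5 were called higher in *Gal* neurons, 0 were called lower and 5 did not pass the test, against 4.59% of all genes called higher, with a list median of 0.22 against -0.08. The highest fold changes among those called were those of *Pcsk1* (1.57 ± 0.14), *Scg2* (0.61 ± 0.11), *Pcsk1n* (0.55 ± 0.11) and *Pam*, the amidating enzyme (0.49 ± 0.10). Of these, *Pcsk1* and *Scg2* were called under all 9 alternatives, and *Pcsk1n* and *Pam* lost the call in thinned nuclei. Of the downstream genes 3 were higher and 2 lower, among them *Adcy8* (-0.90 ± 0.12), *Gnai2* (0.70 ± 0.23), *Kcnj6* (0.59 ± 0.11) and *Adcy9* (-0.48 ± 0.13). The call for *Adcy8* held throughout, that for *Kcnj6* was lost in thinned nuclei, and those for *Adcy9* and *Gnai2* held in 4 and 3 of 9 alternatives. Outside the lists, *Tbx20*, a transcription factor gene (5.31 ± 0.50), *B020031H02Rik*, *Gm45680*, *Fibcd1* and *4930544I03Rik* had the highest fold changes, each called under all 9 alternatives. *Tbx20* was uneven between libraries, at 14.9 ± 16.4 CPM (SD) in *Gal* neurons. The difference between *Sst* and *Gal* neurons was not tested.

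**Figure D4:**
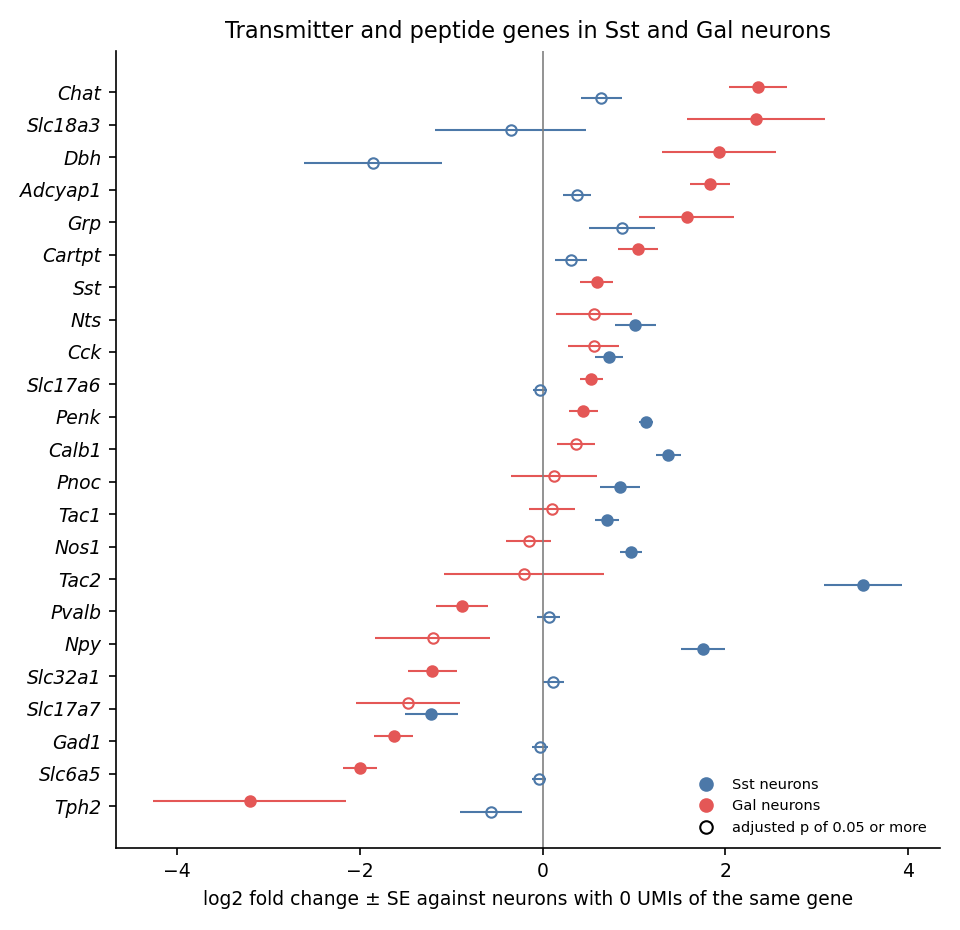
Log2 fold change ± SE of transmitter and peptide genes, and of *Sst*, in *Sst* neurons (blue) and *Gal* neurons (red) against neurons without a UMI of the same ligand, with open circles where the adjusted p was 0.05 or more in edgeR. *Tac2* at 3.50 and *Npy* at 1.76 stand out in *Sst* neurons, and *Chat* at 2.35 and *Slc6a5* at -2.00 in *Gal* neurons.

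The control and AgRP-Gq;POMC-Gi libraries were compared to ask whether the shift in AgRP and POMC activity went with a change in these transcripts. Over all neurons *Sst* did not pass the test, with a log2 fold change (AgRP-Gq;POMC-Gi over control) of -0.03 ± 0.15, and neither did *Sstr2* (-0.08 ± 0.15), *Sstr1* (-0.27 ± 0.33), *Sstr3* (0.32 ± 0.24) or *Galr1* (0.38 ± 0.23). *Gal* was higher by 0.85 ± 0.33, with an unadjusted p of 0.0348 and an adjusted p of 0.817 in edgeR. Of 6 members tested 0 were called by edgeR and 0 by DESeq2, and 1 had an unadjusted p under 0.05 in edgeR. Over all genes, 1 of 16458 was called (0.00608%) and 942 had an unadjusted p under 0.05 (5.72%). That count was not stable, as DESeq2 called 12 genes and pairing the libraries of the same number gave 71. It also moved with the library left out, most without AgRP-Gq;POMC-Gi 2. *Sst* was then at -0.29, and at 0.18 without AgRP-Gq;POMC-Gi 1. The single call is therefore not read as a lack of differences between the groups. In summed nuclei, fewer cells of a type and less RNA per cell cannot be told apart.

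The groups overlapped for *Gal*, as AgRP-Gq;POMC-Gi 1 (10.5 CPM) lay below control 2 (11.3 CPM), and the value moved with single libraries. Its log2 fold change was 0.46 without control 1, 1.38 without control 2, 1.18 without AgRP-Gq;POMC-Gi 1 and 0.40 without AgRP-Gq;POMC-Gi 2. In both groups the library with more choroid plexus nuclei was the higher one. Between the libraries with 2 and 6 such nuclei *Gal* stood 1.77 times as high in AgRP-Gq;POMC-Gi as in control, and between those with 436 and 329 it stood 1.73 times as high, each a single pair. A fit with these pairs, which are also the pairs of replicate number, as a block did call *Gal* (log2 fold change 0.86, adjusted p of 0.00472 in edgeR). In oligodendrocytes, which served as background, *Gal* was at 0.0141, 0.0226, 0.0272 and 0.0360 UMIs per nucleus, in the same direction.

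The share of neurons that fell in the 5 highest *Gal* clusters, which were picked by the same counts, was ordered by group. It was 1.62%, 2.12%, 4.302% and 5.03% by library, higher in each AgRP-Gq;POMC-Gi library than in either control library. The level of *Gal* inside these clusters was 203, 419, 169 and 218 CPM, with no such order. Outside them it was 3.17, 4.08, 4.61 and 10.9 CPM, in the same order of groups as the shares. The order of the shares was not particular to *Gal*. The 5 highest *Sst* clusters held 2.75%, 2.78%, 3.49% and 4.84% of neurons, and those of *Sstr1* and *Sstr4* had the same order of groups. Those of *Galr1* had the reverse, at 3.85%, 3.03%, 2.92% and 2.91%, and those of *Sstr2* and *Sstr3* neither. The share of all nuclei that were neurons also moved with the groups, and *Mbp*, an oligodendrocyte transcript, was at 0.796, 0.621, 0.351 and 0.484 UMIs per neuron. The part of tissue sampling in the *Gal* values was not tested.

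**Figure D5:**
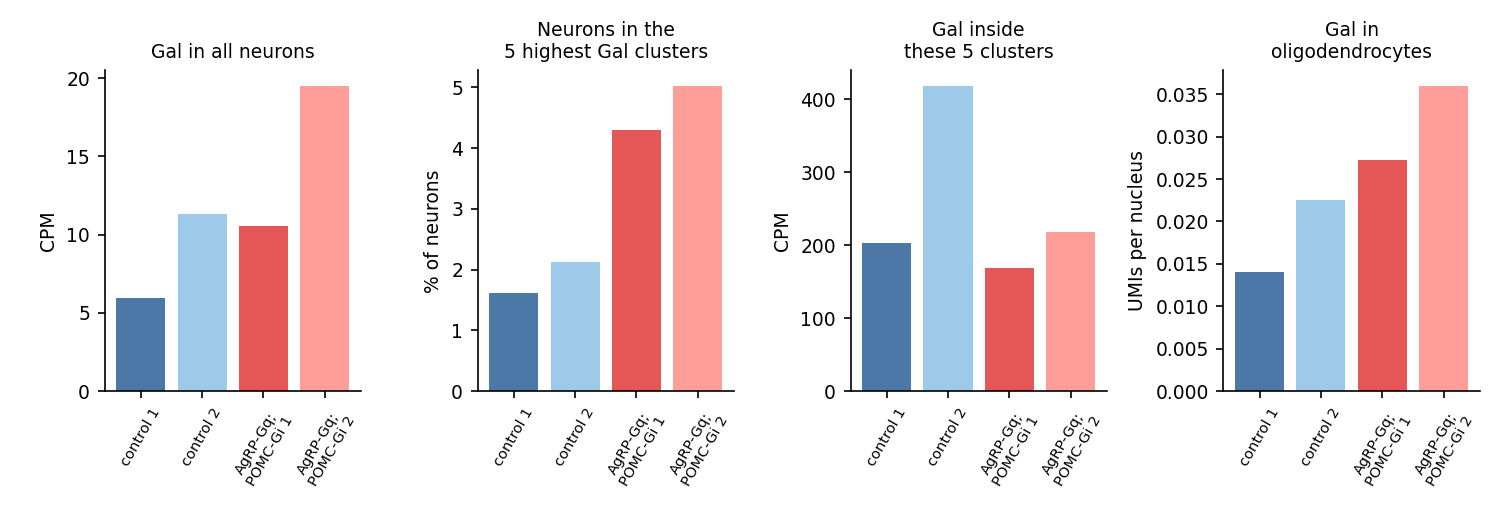
*Gal* by library, from left to right in all neurons (CPM), the percent of neurons in the 5 highest *Gal* clusters, the CPM inside these clusters and UMIs per oligodendrocyte nucleus, with 1 bar for each library. The share of neurons in these clusters is 1.62% and 2.12% in the controls and 4.302% and 5.03% in AgRP-Gq;POMC-Gi, while the level inside them is highest in control 2 at 419 CPM. The level outside them, not drawn, is 3.17, 4.08, 4.61 and 10.9 CPM by library.

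Within single clusters 265 pairs of a member and a cluster could be tested, taking clusters with a minimum of 5 nuclei per library and genes with a UMI in 5% of the nuclei or more. One pair was called, *Gal* in cluster 118, Lhx9/Col25a1, where 0.0385% of 1396489 pairs of any gene and cluster were called. *Gal* had 0 UMIs in the 5 and 12 control nuclei, 4 in 17 nuclei of AgRP-Gq;POMC-Gi 1 and 49 in 47 nuclei of AgRP-Gq;POMC-Gi 2. The pair thus passed the filter only through the AgRP-Gq;POMC-Gi nuclei, where *Gal* is high. Its call and the bound that follows describe this cluster and are not taken as support for a change in *Gal*. Against a floor of 3 UMIs over the control group, *Gal* was at least 5.24-fold higher (adjusted p of 0.0110 in edgeR). AgRP-Gq;POMC-Gi 2 carried that bound, since in AgRP-Gq;POMC-Gi 1 alone *Gal* was at least 1.37-fold higher than the same floor. DESeq2 called 0 pairs, and the call for *Gal* in this cluster was lost without control 1, without control 2 and without AgRP-Gq;POMC-Gi 2. Without control 1 the one call was *Gal* in cluster 53, lower in AgRP-Gq;POMC-Gi at a log2 fold change of -1.26 (adjusted p of 0.0170 in edgeR), where control 2 was then the only control. *Sst* was highest in AgRP-Gq;POMC-Gi 2 in cluster 118 too, with 0, 1, 1 and 21 UMIs.

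Over all pairs tested, the called one included, the direction differed by gene. For *Gal*, 24 of 33 clusters tested had a higher value in AgRP-Gq;POMC-Gi, with a median log2 fold change of 1.13, and all 4 with an unadjusted p under 0.05 were higher. For *Galr1*, 19 of 29 were higher (median 0.22), and so were all 4 with an unadjusted p under 0.05. For *Sstr2*, 39 of 84 were higher (median -0.09), and 1 of 3 with an unadjusted p under 0.05. For *Sst*, 47 of 112 were higher (median -0.18), and of 16 with an unadjusted p under 0.05 only 6 were higher. All members together had 27 of 265 pairs with an unadjusted p under 0.05 by edgeR and 3 by DESeq2, where 4.52% of all pairs of any gene had one by edgeR. The clusters share libraries, so these counts are not independent. The filter pooled the nuclei of all libraries, and more of these neurons were of AgRP-Gq;POMC-Gi. A cluster could thus enter through that group alone, as cluster 118 did for *Gal*. In oligodendrocytes *Gal* was also higher in AgRP-Gq;POMC-Gi, 2.41 times between the libraries with few choroid plexus nuclei and 1.74 times between those with many. The part of the filter and of background in these directions was not tested.

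The difference between AgRP-Gq;POMC-Gi and control in the members did not differ detectably between *Slc32a1* and *Slc17a6* neurons. In the test of the difference itself (an interaction in edgeR), 0 of 6 members were called, none had an unadjusted p under 0.05 and DESeq2 called 0, where 0.0211% of 18970 genes were called. The largest differences were those of *Galr1* (-0.40) and *Sstr3* (0.35), and for *Gal* it was 0.17 (adjusted p of 1.00). The interval that these 4 libraries allow is wide, as leaving out 1 library moved the value for *Galr1* between -0.98 and 0.26.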

How the data were processed

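Nuclei of 4 libraries (10x Genomics 3′ chemistry) were counted by the authors, who mapped reads to GRCm38 and counted UMIs with Cell Ranger 7.0.0, processed them with Seurat 4.3.0, and dropped doublet calls and nuclei under 800 UMIs, under 500 genes or above 10% mitochondrial RNA. The deposited values used are raw UMI counts per gene and nucleus, and a table with the authors' kept nuclei, clusters and cell types, which were not computed again. Of the barcodes, 43398 meet the stated filter and 39461 were kept. Groups follow the sample titles.

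UMIs were summed per library and class and given as CPM. Tests were quasi-likelihood F tests (edgeR 4.0.16, TMM factors, R 4.3.3) with Benjamini-Hochberg adjustment over all genes tested, and a call is an adjusted p under 0.05. Genes needed a UMI in 1% of neurons for all neurons, in 5% of nuclei for clusters, and 50 UMIs in all neurons for the class comparisons, where the genes that set the class were left out. The authors' mixed model was not used here. The alternatives were no TMM factors, DESeq2 1.42.0, other gene and nucleus filters, other UMI minimums, nuclei thinned to 2000 UMIs (800 for cell types), the replicate block and each library left out. Clusters were called glutamatergic or GABAergic by a 4-fold ratio of *Slc17a6* and *Slc32a1* CPM with at least 20 UMIs. A share of 0 is bounded by 3 counts. The thinned and Poisson shares of nuclei with several UMIs, and the cluster means, transmitters and overlaps without 1 library, were added after the values were seen. The tests were tried on simulated data before use.

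Members, lists and tests were chosen with earlier results of these data known. All members are named, with the 5 highest clusters of each, the lists by counts with up to 4 called genes by absolute fold change, and 5 called genes outside the lists, with at least 10 CPM. The other called transmitter genes are named to account for the list. Sequences and positions are from GENCODE M21 on GRCm38, and Python 3.11.15 with numpy 2.4.6, pandas 2.3.3, scipy 1.17.1 and matplotlib 3.10.9 made tables and figures.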

Additional observations from a re-analysis of the deposited data

Results flagged for a closer look

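The 4842 barcodes that the authors left out, and that no comparison above uses, held UMIs of the same genes in all 4 libraries above the 3 counts that a true 0 would allow. A UMI was found in 12.7% of them for *Sst*, 5.20% for *Gal*, 3.08% for *Sstr2*, 1.45% for *Galr1*, 0.785% for *Sstr3* and 0.682% for *Sstr1*, at a median depth of 4270 UMIs. For all 6 genes these shares lie between those of oligodendrocytes and of neurons. The highest single barcode held 14 UMIs of *Sst* and 18 of *Gal*.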

How the results depend on the processing

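Leaving out 1 library gave 0 to 4 called pairs of a member and a cluster, 0 to 1 members higher in *Slc32a1* neurons, 1 to 2 members and transmitter genes lower in *Sst* neurons, 5 to 7 higher and 2 to 7 lower in *Gal* neurons, and 14 to 26 clusters with *Gal* above background, 14 of them without AgRP-Gq;POMC-Gi 2. Called pairs were 2 without TMM factors, 0 with DESeq2 (6 of 265 had no adjusted p), 3 without a gene filter, 0 with filterByExpr and 0 with 10 nuclei per library. In nuclei thinned to 2000 UMIs, 0 members were higher in *Slc32a1* neurons, 3 genes were higher and 0 lower in *Sst* neurons, and 1 was higher and 3 were lower in *Gal* neurons. With DESeq2, 0 were lower in *Sst* neurons and 5 higher and 3 lower in *Gal* neurons, against 9 higher and 1 lower in *Sst* neurons and 9 and 5 in *Gal* neurons in edgeR. A minimum of 1 UMI left 0 lower in *Sst* neurons, and 4 UMIs left 5 higher in *Gal* neurons. Thinned cluster counts were 25 for *Sst*, 12 for *Sstr1*, 48 for *Sstr2*, 5 for *Sstr3*, 9 for *Gal* and 30 for *Galr1*, and against the highest non-neuronal share they were 46 for *Sst*, 2 for *Sstr1*, 25 for *Sstr3*, 5 for *Sstr4* and 8 for *Gal*. The mean of single nuclei put *Sst* at 36.1 CPM, and with 5 nuclei per library required the highest *Sstr2* cluster stood at 24.1 CPM.

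With the replicate number as a block, 1 member was called between groups (*Gal*, log2 fold change 0.86, adjusted p of 0.00472 in edgeR, where the block raised the calls over all genes from 1 to 71) and 2 pairs were called. The deviations of same-numbered libraries correlated at r = 0.049. With 2 libraries per group this is the same value for both numbers, so it cannot decide whether the libraries pair. The labels do not say that the number marks a shared animal, batch or day, so it was not taken to pair the libraries. Both libraries numbered 2 did hold most of the choroid plexus nuclei. *Ttr*, a marker of the choroid plexus, was at 0.0162, 10.1, 0.0725 and 5.63 UMIs per neuron by library.

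The direction turned for several values that were not called, and for 2 that were. Thinned, *Sstr2* was at 0.039 between the transporter classes, and in *Sst* neurons *Gal* was at -0.047, *Sstr1* at -0.42 and *Sstr2* at -0.10. In *Sst* neurons *Sstr3* was at 0.075 at a minimum of 1 UMI. In *Gal* neurons *Galr1* was at -0.72 at 4 UMIs, *Tph2* at 0.0021 at 1 UMI, and *Sstr2* at 0.027 without TMM factors and 0.013 with DESeq2. With 1 library left out, the log2 fold change between groups spanned -0.29 to 0.18 for *Sst*, -0.63 to 0.093 for *Sstr1* and -0.20 to 0.030 for *Sstr2*, and between transporter classes -0.064 to 0.093 for *Sst*. The difference of the group effect between classes spanned -0.019 to 0.27 for *Gal*, -0.98 to 0.26 for *Galr1* and -0.077 to 1.00 for *Sstr3*. In *Sst* neurons *Gal* spanned -0.16 to 0.52, *Sstr1* -0.10 to 0.98, *Sstr2* -0.20 to 0.19 and *Sstr3* -0.28 to 0.15, and in *Gal* neurons *Sst* spanned -0.045 to 0.94 and *Sstr2* -0.37 to 0.14. The cause was not tested in any of these. *Sstr4*, with 19 UMIs in neurons, was below what this depth can compare.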

Other observations

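*Gal* was also found in cluster 116, Prph/Slc5a7, a cluster whose names mark cholinergic neurons with long axons, chosen here after its values were seen. It held 15.7, 32.8, 38.9 and 153 CPM of *Gal* by library, with a UMI in 42.7% of 82 nuclei, and 21 of the 254 *Gal* neurons lay in it. The difference between groups there was not called (log2 fold change 1.96, adjusted p of 0.130 in edgeR). In cluster 109, Gcg/Reln, *Sst* gave 18 and 2 UMIs in the 23 and 24 control nuclei and 0 in the 14 and 28 nuclei of AgRP-Gq;POMC-Gi, again without a call (adjusted p of 0.217 in edgeR), and nearly all of it came from control 1. Both pairs were called without control 2 (adjusted p of 0.0408 and 0.000771) and without AgRP-Gq;POMC-Gi 1 (0.00673 and 0.0401), and without a gene filter (0.0360 and 0.00200). *Gal* in cluster 116 was also called with the replicate block (0.0276), and *Sst* in cluster 109 without TMM factors (0.0178).

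Over the 133 neuronal clusters with at least 20 nuclei, the genes with the most similar pattern (Pearson's r of log2(CPM + 1), among 12514 genes) were only weakly similar. They were *Tert*, *Bmerb1* and *Itgb8* for *Sst* (r = 0.40 each), *Tuba1a*, *Ddx5* and *Ptges3* for *Gal* (0.49, 0.45 and 0.44), *Jade3*, *Gfra4* and *Terb1* for *Sstr2* (0.52, 0.46 and 0.45) and *Tfap2a*, *Zmym1* and *Ftx* for *Galr1* (0.49, 0.49 and 0.48). For *Sstr1* they were *Cers5*, *Ftx* and *Zeb2* (0.46, 0.43 and 0.43), for *Sstr3* *Akap7*, *Luzp1* and *Fhod3* (0.44, 0.42 and 0.41) and for *Sstr4* *Col23a1*, *Gm29478* and *Stxbp5l* (0.37, 0.34 and 0.31). The clusters share libraries and depth, and in counts this sparse correlations of that size are no finding.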
